A study of Homo sapiens with 6 samples.

Results

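A set of 10 genes that mark the epithelial and the mesenchymal state of a cell was followed in UMUC3 cells, an established human bladder cancer line, with and without the receptor TIM-1. They are the cadherins CDH1, CDH2 and CDH11, the structural genes VIM and FN1, and the transcription factors ZEB1, ZEB2, SNAI1, SNAI2 and TWIST1. The 10 were taken by symbol from the 60605 gene rows of the count table, and all 10 were found. Cells of the TIM-1 group were infected with TIM-1-PLVX-IRES-zsgreen, a vector that joins TIM-1 to the green fluorescent protein ZsGreen through an internal ribosome entry site, and control cells with PLVX-IRES-Zsgreen, which lacks TIM-1. Infection and ZsGreen are thus shared by both groups, which held 3 libraries each, numbered 1 to 3. The labels name neither separate cultures nor clones, so a p-value here weighs nothing but how far these libraries scatter, and that scatter may be technical. In bulk RNA, fewer cells with a transcript and less of it per cell cannot be told apart.

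In an epithelium, E-cadherin (CDH1) joins neighbouring cells by binding its like across the contact, and catenins tie it to actin. In the epithelial-mesenchymal transition, which takes place in development and in part in carcinomas, E-cadherin is lost, N-cadherin (CDH2) is gained, and the intermediate filament protein vimentin (VIM) and the matrix protein fibronectin (FN1) become abundant. The SNAI and ZEB zinc finger proteins repress CDH1 by binding short DNA sequences called E-boxes, and TWIST1 is a helix-loop-helix protein of the same program. In urothelial tumours loss of E-cadherin goes with invasive growth, and UMUC3 is commonly used as a mesenchymal-like line.

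A pair of promoter stretches is shown because they belong to the most abundant of the 10 genes and to the most abundant of the transcription factors, and because one of them holds the E-box that ZEB and SNAI proteins bind. Each is the 250 bases before a start site on the plus strand, from RefSeq (GRCh38.p14), in lower case with the E-box CAGGTG or its complement CACCTG in capitals. They cover chr10:17227991-17228240 for VIM and chr10:31318167-31318416 for ZEB1.
VIM: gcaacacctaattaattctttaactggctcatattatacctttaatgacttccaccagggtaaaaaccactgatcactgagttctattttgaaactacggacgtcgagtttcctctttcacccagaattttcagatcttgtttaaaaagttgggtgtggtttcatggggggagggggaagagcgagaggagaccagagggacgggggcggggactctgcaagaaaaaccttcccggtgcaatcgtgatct
ZEB1: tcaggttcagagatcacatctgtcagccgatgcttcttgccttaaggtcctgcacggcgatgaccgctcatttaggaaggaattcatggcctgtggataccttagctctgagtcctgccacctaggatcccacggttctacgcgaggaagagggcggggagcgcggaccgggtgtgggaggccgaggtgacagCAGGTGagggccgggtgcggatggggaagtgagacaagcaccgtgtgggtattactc
The VIM stretch held none of these letters, and the ZEB1 stretch held CAGGTG once, beginning 57 bases before the start. RefSeq entries were matched for 5 of the 10 genes (VIM, ZEB1, ZEB2, FN1 and CDH2), with 12 start sites. The E-box lay upstream of 2 of them, both among the 7 ZEB1 starts, and the second of these, at position 31319216 of chromosome 10, had it 2 times. Of all 35116 listed starts, 17.5% had it in the same 250 bases. A match is a description of the sequence and not a bound site.

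Total counts ran from 14312387 to 18605914 per library. HAVCR1, the gene of TIM-1, was read 7069, 9824 and 11479 times in the TIM-1 libraries and 4, 0 and 0 times in the controls, as labelled. Levels are given as CPM, counts scaled to a common library size. Two-sided tests ran over 14479 genes with edgeR, and a gene was called at a Benjamini-Hochberg adjusted p under 0.05. The test without pairing called 2 genes (0.0138% of those tested), and with the replicate number as a block it called 725 (5.01%). The block takes same-numbered libraries as pairs, and the data single out such a match for replicate 1 only. Of the epithelial marker EPCAM 0 reads were counted in any library, while the keratins KRT8 and KRT18 were read in all. Urothelial markers were mostly sparse: UPK3A and KRT20 had 0 reads in each library and GATA3 between 12 and 38, while PPARG had between 70 and 156. In the blocked test GATA3 was lower (log2 fold change -1.25, edgeR adjusted p = 0.0457) and PPARG higher (0.62, edgeR adjusted p = 0.0185) with TIM-1. Neither was called without the block (edgeR adjusted p = 0.676 and 0.644). The part of these differences in other results was not tested. The leukocyte marker PTPRC and the fibroblast marker DCN had 0 reads in each library. Some others on the same lists were read, CD14 at most 1 time in a library and COL1A1 between 65 and 191 times.

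In both groups VIM, ZEB1, SNAI1 and CDH2 were the most abundant of these transcripts, while FN1, ZEB2 and SNAI2 were low and CDH11 had 4 reads in all. Per kilobase of annotated exon VIM came first, with a mean of 335 CPM per kb over the 6 libraries (lowest 274, highest 411). ZEB1 followed at 17.8 (16.4 to 19.1), SNAI1 at 9.97 (7.14 to 12.6), CDH2 at 5.96 (5.36 to 6.42) and TWIST1 at 3.19 (2.40 to 3.53). The lowest tested levels were those of FN1 at 0.755 (0.617 to 0.911), ZEB2 at 0.659 (0.589 to 0.724) and SNAI2 at 0.302 (0.0923 to 0.401) CPM per kb. Among neighbours in this order, only FN1 and ZEB2 overlapped. These lengths count every annotated exon. With the length of the principal transcript instead, ZEB2 (1.73) came before FN1 (1.65 CPM per kb), and CDH2 (6.13 to 7.34) touched SNAI1 (7.14 to 12.6). VIM lay above 99.4% of the tested genes per length, ZEB1 above 82.0%, SNAI1 above 70.3%, CDH2 above 56.4%, TWIST1 above 41.9%, FN1 above 16.2%, ZEB2 above 14.6% and SNAI2 above 6.26%. Low FN1 beside high VIM held in each library: per length VIM stood between 339 and 667 times FN1.

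**Figure D1:**
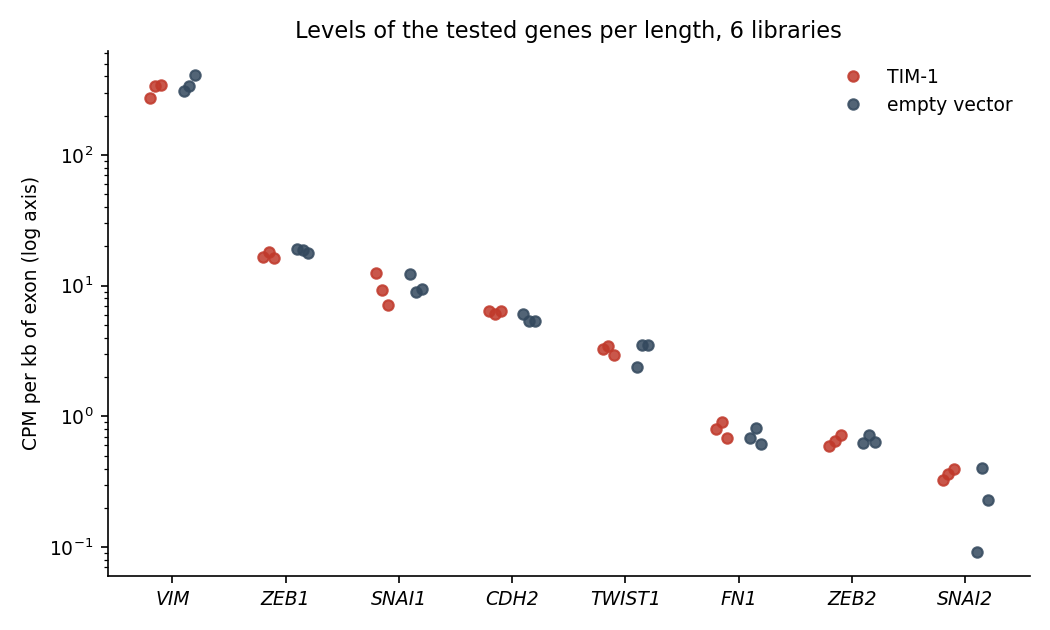
Level of the 8 tested genes in CPM per kilobase of annotated exon (log axis), 1 point per library, TIM-1 in red and empty vector in dark grey. The order runs from VIM (mean 335) to SNAI2 (mean 0.302), and the points of both groups overlap in height for each gene. CDH1 and CDH11 are left out because they stayed below the filter on low counts and were not tested.

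Among the cadherins N-cadherin was read in all libraries and E-cadherin in 1. CDH1 (ENSG00000039068, chromosome 16, 68737225 to 68835548, plus strand of GRCh38) had 2 reads in TIM-1 replicate 1 and 0 in each of the other 5 libraries. A count of 0 allows up to 3 reads, or between 0.162 and 0.188 CPM in those 5 libraries, and the 2 reads of TIM-1 replicate 1 were 0.138 CPM (exact Poisson 95% interval 0.0167 to 0.498, counting error only). CDH11 (ENSG00000140937, chromosome 16, 64943753 to 65126112, minus strand), a cadherin of mesenchymal cells and osteoblasts, had 2, 0 and 2 reads in TIM-1 libraries and 0 in each control library. Both genes stayed below the filter on low counts and were not tested, and no fold is given since no library exceeded 3 reads. CDH2 (ENSG00000170558, chromosome 18, 27950966 to 28177446, minus strand) was read 459, 486 and 589 times in TIM-1 libraries and 483, 433 and 440 times in controls. Pooled over all 6 libraries, CDH2 had 2890 reads against 2 for CDH1, a ratio per exon length of 1803 (exact 95% interval 499 to 14897, counting error only).

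In CPM, CDH2 stood at 31.7, 30.1 and 31.8 in TIM-1 replicates 1, 2 and 3 and at 30.3, 26.8 and 26.5 in the empty-vector replicates. It was higher with TIM-1 in each same-numbered pair, yet empty-vector replicate 1 lay above TIM-1 replicate 2, so the groups overlapped. The TIM-1 mean was 31.2 ± 0.958 CPM and the control mean 27.9 ± 2.08 CPM (SD, n = 3 each). The log2 fold change was 0.16 (SE 0.11, 95% interval -0.08 to 0.40, edgeR adjusted p = 0.914), and with the block 0.17 (edgeR adjusted p = 0.358).

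Of the structural genes, vimentin was the 44th most abundant of the 14479 tested transcripts and fibronectin was scarce. VIM (ENSG00000026025, chromosome 10, 17228259 to 17237593, plus strand) stood at 1413, 1734 and 1770 CPM in TIM-1 replicates 1, 2 and 3 and at 1594, 1739 and 2121 CPM in the empty-vector replicates. It took between 0.143% and 0.205% of the reads of a library. In each pair the TIM-1 library was the lower one, by little in replicate 2, and the groups overlapped. The log2 fold change was -0.15 (SE 0.12, 95% interval -0.42 to 0.12, edgeR adjusted p = 0.921). The blocked value was also -0.15, with an interval of -0.27 to -0.03, an unadjusted edgeR p of 0.0179 and an adjusted one of 0.155. At that unadjusted level 18.3% of all tested genes lay under 0.05 in the blocked fit, so 1 of 8 tested members is no excess. Without empty-vector replicate 3 the unpaired value was -0.02, and without TIM-1 replicate 1 it was -0.05. The antisense gene VIM-AS1 overlaps VIM exons on the opposite strand, and whether the counting used strand is not stated in any source at hand, so reads of such partners may be mixed. VIM-AS1 had 107, 180 and 178 reads in TIM-1 libraries and 114, 121 and 114 in controls (log2 fold change 0.39, edgeR adjusted p = 0.891), few against the 20479 to 35160 reads of VIM.

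FN1 (ENSG00000115414, chromosome 2, 215360440 to 215436172, minus strand) was read 203, 255 and 219 times with TIM-1 and 190, 230 and 177 times with the empty vector. This gave 14, 15.8 and 11.8 CPM against 11.9, 14.2 and 10.7 CPM. Replicate 2 was the highest and replicate 3 the lowest in both groups, and TIM-1 was higher within each pair. The log2 fold change was 0.18 (SE 0.17, 95% interval -0.19 to 0.54, edgeR adjusted p = 0.921), with values from 0.07 without TIM-1 replicate 2 to 0.29 without empty-vector replicate 2.

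ZEB1 was the leading transcription factor of the family. ZEB1 (ENSG00000148516, chromosome 10, 31318495 to 31529814, plus strand) stood at 144, 157 and 142 CPM in TIM-1 libraries and at 165, 162 and 154 CPM in controls. TIM-1 was lower in each pair, but TIM-1 replicate 2 lay above empty-vector replicate 3. The log2 fold change was -0.12 (SE 0.08, 95% interval -0.30 to 0.06, edgeR adjusted p = 0.914), and with the block -0.12 (edgeR adjusted p = 0.310). ZEB2 (ENSG00000169554, chromosome 2, 144364364 to 144524583, minus strand), its close relative, stood at 14.8, 16.4 and 18.1 CPM in TIM-1 libraries and at 15.8, 18 and 16 CPM in the controls. TIM-1 was higher in 1 of 3 pairs and the groups overlapped. Its log2 fold change was -0.01 (SE 0.13, 95% interval -0.31 to 0.28, edgeR adjusted p = 0.994). Per exon length ZEB1 exceeded ZEB2 by 28.3, 27.8 and 22.6 times in TIM-1 replicates 1, 2 and 3 and by 30.2, 26.1 and 27.8 times in the empty-vector replicates. The ratios of both groups overlapped. They depend on the length used: per kilobase of the principal transcript the means were 28.4 CPM for ZEB1 and 1.73 CPM for ZEB2, which are closer together. ZEB1-AS1, an antisense gene that overlaps ZEB1 exons, had between 155 and 236 reads per library against 2088 to 2639 for ZEB1.

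SNAI1 (ENSG00000124216, chromosome 20, 49982999 to 49988886, plus strand), the founding repressor of CDH1, stood at 21.2, 15.7 and 12 CPM in TIM-1 libraries and at 20.8, 15.2 and 16 CPM in controls. Replicate 1 was the highest of its group in both, and the groups overlapped. The log2 fold change was -0.09 (SE 0.21, 95% interval -0.56 to 0.38, edgeR adjusted p = 0.970), and it turned to 0.09 without TIM-1 replicate 3 and to 0.06 without empty-vector replicate 1. SNAI2, also called Slug (ENSG00000019549, chromosome 8, 48917604 to 48921740, minus strand), was near the limit of the filter, with 16, 20 and 25 reads against 5, 22 and 13. The 5 reads of empty-vector replicate 1 have an exact Poisson 95% interval of 1.62 to 11.7 reads (counting error only), below the 22 of replicate 2. SNAI2 had the widest interval of the family, with a log2 fold change of 0.59 (SE 0.47, 95% interval -0.47 to 1.64, edgeR adjusted p = 0.921). Leaving out control replicate 1 gave 0.20 and leaving out control replicate 2 gave 1.15, so single control libraries set its size. TWIST1 (ENSG00000122691, chromosome 7, 19020991 to 19117672, minus strand) stood at 6.69, 7.05 and 6.04 CPM in TIM-1 libraries and at 4.89, 7.11 and 7.18 CPM in controls, with overlap. Its log2 fold change was 0.04 (SE 0.20, 95% interval -0.40 to 0.49, edgeR adjusted p = 0.990), and -0.12 without empty-vector replicate 1, the lowest library.

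**Figure D2:**
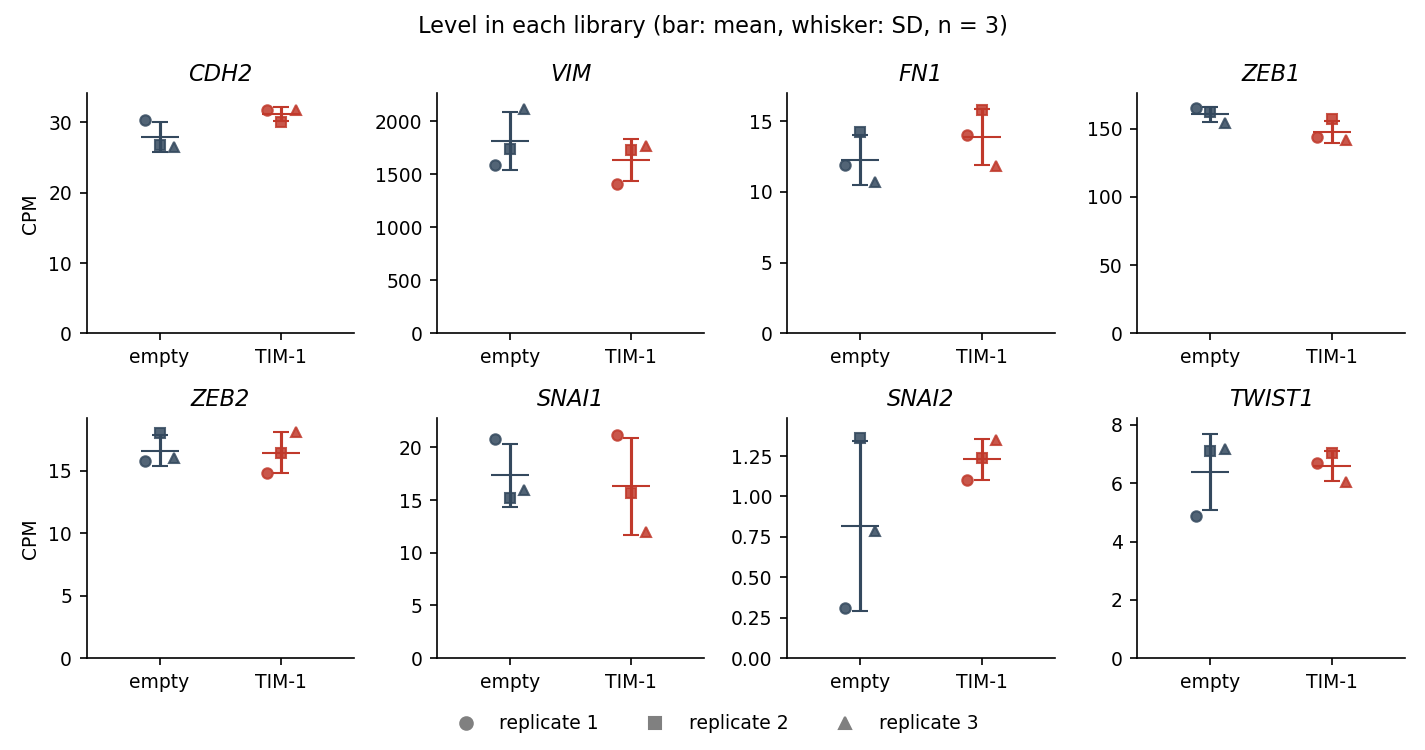
Level of each tested gene in CPM (linear axes from 0), empty vector in dark grey and TIM-1 in red, with circles, squares and triangles for replicates 1, 2 and 3, and the mean and SD of 3 libraries as bar and whisker. The groups overlap in each of the 8 panels, and SNAI1 is highest in replicate 1 of both groups (21.2 and 20.8 CPM).

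Between the groups 0 of the 8 tested members were called, in the unpaired and in the blocked edgeR test. At an unadjusted p under 0.05 there were 0 and 1 members (5.49% and 18.3% of all tested genes), and DESeq2 called 0 with and without the block. The groups overlapped in 8 of 8, where 11.7% of all tested genes did not overlap (6.6% higher and 5.06% lower with TIM-1). Values of CDH2 and FN1 were higher, and those of VIM and ZEB1 lower, in all 3 pairs, which makes 4 of 8 members with the same direction in all pairs beside 39.2% of all tested genes. The median log2 fold change of the 8 was 0.01 and their median absolute value 0.13, beside 0.12 over all tested genes. Apart from SNAI2, the unpaired intervals lay between -0.56 and 0.54 and that of each member was its own, from -0.30 to 0.06 for ZEB1 to -0.56 to 0.38 for SNAI1.

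**Figure D3:**
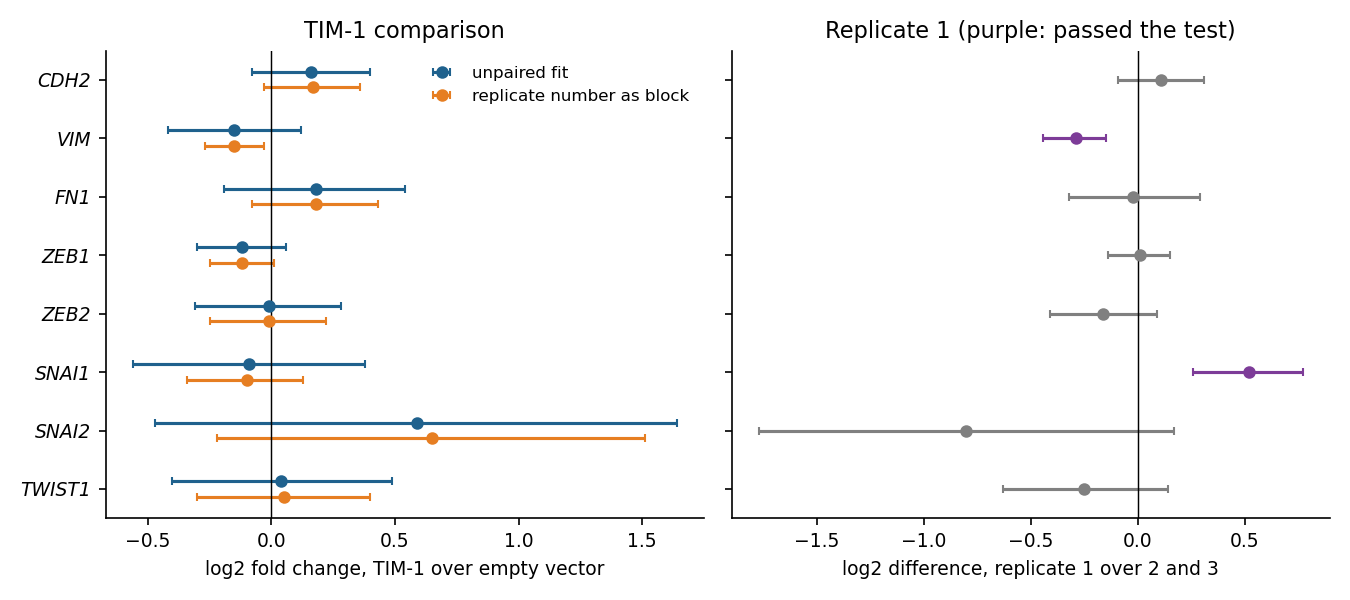
Left, log2 fold change of TIM-1 over empty vector with its 95% interval, unpaired in blue and with the replicate number as a block in orange. Right, log2 difference of replicate 1 from replicates 2 and 3 with the group as a term, in purple where the test was passed. On the left the blocked VIM interval (-0.27 to -0.03) alone misses 0 and its adjusted p is 0.155; on the right SNAI1 (0.52) and VIM (-0.29) stand apart.

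Of the 8 tested members, 2 differed by replicate number. With the group as a term, SNAI1 stood higher in the libraries numbered 1 than in the rest, with a log2 difference of 0.52 (SE 0.12, edgeR adjusted p = 0.00362), and VIM was lower, with a difference of -0.29 (SE 0.07, edgeR adjusted p = 0.00316). The 2 of 8 stand beside 23.6% of all tested genes, a share near that background. The SNAI1 difference was 0.61 within the TIM-1 group and 0.42 within the empty-vector group, and that of VIM -0.31 and -0.28. Without TIM-1 replicate 1, which leaves 1 library numbered 1, both missed the threshold at differences of 0.42 for SNAI1 and -0.28 for VIM (edgeR adjusted p = 0.141 and 0.113). VIM also missed it without empty-vector replicate 1, at -0.31 (0.0947). CDH2, FN1, ZEB1, ZEB2, SNAI2 and TWIST1 were not called, with differences of 0.11, -0.02, 0.01, -0.16, -0.80 and -0.25. That of SNAI2 was -0.23 within the TIM-1 group and -1.78 within the empty-vector group, and -0.23 without empty-vector replicate 1. What the number marks is not given in the labels.

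Among members of at least 5 CPM, SNAI1 (SD 0.31), TWIST1 (0.22) and FN1 (0.21) varied most over the 6 libraries in log2 CPM, and ZEB1 least (0.09). The genes whose centred log2 CPM lay closest to SNAI1, out of 13320, were ENSG00000261786, RASL11A and DYNC2H1, at root mean square differences of 0.057, 0.064 and 0.070. Their profiles share the high replicate 1 of SNAI1 because likeness to it chose them. Closest to TWIST1 were ANKMY1 (0.038), DZIP1L (0.042) and DNAJC25 (0.061), and closest to FN1 were JMY (0.042), JHY (0.047) and MINDY1 (0.065). With 6 libraries such likeness describes these libraries alone.

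Around the 10 genes, most of the listed epithelial genes were at or near 0 reads, while some were well read. Where 2 CPM values stand together from here on, they are group means with TIM-1 first. Of 24 epithelial junction and splicing genes 8 passed the filter on low counts, 13 had a few reads and 3 had 0 reads in all libraries. The splicing factor ESRP1 was among these 3. Of the 8 that passed, TJP1 stood at 83.5 and 82.9 CPM and OCLN at 17.6 and 17.2 CPM. The factors GRHL2, OVOL1 and ELF3, which uphold epithelial genes, were also at 0. Of 10 epithelial transcription factors 4 were tested, among them GRHL1 at 6.09 and 5.77 CPM. In the blocked test 3.22% of all tested genes rose and 1.79% fell. Of the 8 tested genes on the junction and splicing list 0 rose and 1 fell. This was KRT18, a keratin of simple epithelia (log2 fold change -0.24, edgeR adjusted p = 0.00946). KRT18 stood at 272, 367 and 390 CPM in TIM-1 libraries and 314, 402 and 511 in controls, with overlap. Without the block 0 of the 8 passed, and KRT18 had an edgeR adjusted p of 0.917. The 1 gene at an unadjusted edgeR p under 0.05 without the block was DSP. DESeq2 called 0 of the 8 without the block and 1, lower, with it. The KRT18 call did not hold when pair 2 or pair 3 was left out (edgeR adjusted p = 0.0632 and 0.147), with log2 fold changes of -0.30 and -0.17 from 4 libraries, and KRT18 was lower in replicate 1 by a log2 difference of -0.51. KRT18 has near-identical processed pseudogenes, so its reads may be split. The desmosomal gene DSP stood at 2.62 and 1.46 CPM, with 19 to 46 reads a library. Its groups did not overlap, as for 11.7% of all tested genes. Its log2 fold change was 0.83 unpaired (edgeR adjusted p = 0.807) and 0.85 blocked (edgeR adjusted p = 0.1). The mucin gene MUC1 stood at 3.84 and 3.30 CPM. Of the 4 tested epithelial factors 0 passed (0 at an unadjusted p under 0.05 in either edgeR test, 0 by DESeq2). KLF4, KLF5 and FOXA1 had blocked log2 fold changes of -0.12, 0.26 and 0.22. With a pair left out KLF5 ran from 0.07 to 0.39 and FOXA1 from 0.04 to 0.44, so both were smallest without pair 3. KLF4 was lower in replicate 1 by a difference of -1.40.

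The partners of cadherins at the junction ranged from JUP, the plakoglobin gene, at 24 to 41 reads a library to the catenin gene CTNNA1, and 0 of 8 passed the edgeR or DESeq2 test. At an unadjusted p under 0.05 there were 0 of 8 unpaired and 3 of 8 blocked, beside 5.49% and 18.3% of all tested genes. CTNNA1 averaged 692 ± 35.5 CPM in TIM-1 libraries and 637 ± 25.4 in controls (SD, n = 3 each; blocked edgeR adjusted p = 0.255). CTNND1, the p120 catenin gene, stood at 8.78 and 11 CPM (0.212) and NECTIN2, a nectin adhesion receptor gene, at 70.3 and 60.4 CPM (0.0853). NECTIN2 was called when pair 3 was left out (log2 fold change 0.30, blocked edgeR adjusted p = 0.016). Of 19 further cadherins 7 were tested and 5 had 0 reads. The most abundant was CDH24 (35.2 and 33.5 CPM), then CDH4, or R-cadherin, at 36.7, 22.1 and 21.3 CPM in TIM-1 libraries and 25.6, 18.5 and 22.7 in controls. CDH4 was highest in replicate 1 of both groups, with a difference of 0.54 (edgeR adjusted p = 0.00132). The muscle cadherin CDH15 was scarce, at 13, 12 and 16 reads in TIM-1 libraries and 3, 3 and 6 in controls. This gave 0.897, 0.743 and 0.864 CPM against 0.188, 0.186 and 0.362 CPM, without overlap. The log2 fold change was 1.73 in both fits (edgeR adjusted p = 0.641 unpaired and 0.0678 blocked). CDH3, or P-cadherin, stood at 1.10 and 0.890 CPM. With all libraries 0 of these 7 passed either edgeR test or DESeq2, with 1 at an unadjusted p under 0.05 unpaired and 2 blocked. CDH4 was called higher when pair 3 was left out (log2 fold change 0.40, blocked edgeR adjusted p = 0.0303).

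Structural genes of mesenchymal cells other than VIM and FN1 were the group in which most blocked calls lay. Of 24 listed genes 13 were tested and 11 had too few reads, among them the collagen genes COL1A2 and COL3A1, POSTN, ACTA2 and THY1, 5 genes named after their values were seen and each with at most 11 reads in a library. Of the tested genes 7 rose and 0 fell with the block, where the shares over all tested genes were 3.22% and 1.79%. Without the block 0 of 13 passed edgeR (4 at an unadjusted p under 0.05) and DESeq2 called 1. The list was drawn up knowing that matrix genes rose in these samples, so it is not independent evidence of the direction. Its median log2 fold change was 0.27 blocked and 0.30 unpaired, against -0.00075 over all tested genes unpaired. MMP2, a gelatinase gene, stood at 17.7, 17.6 and 18.1 CPM in TIM-1 libraries and 11.8, 9.21 and 9.29 in controls, and its groups did not overlap (log2 fold change 0.83, SE 0.13, blocked edgeR adjusted p = 9.49e-06). COL1A1, a chain of type I collagen, stood at 13.2, 7.24 and 7.93 CPM against 7.33, 4.02 and 3.92 CPM, with replicate 1 highest in both groups (log2 fold change 0.90, blocked edgeR adjusted p = 0.000265). The collagen crosslinking enzyme gene LOXL2 rose by 0.31 on the log2 scale (blocked edgeR adjusted p = 0.000389; 0.29 with an adjusted p of 0.0766 without pair 2), and AXL, a receptor tyrosine kinase gene, stood at 407 and 397 CPM. Also called, and named after their values were seen, were SPARC (0.34), TNC (1.30), MMP14 (0.31) and CALD1 (0.25). CALD1 was higher with TIM-1 in 2 of 3 pairs and lower in pair 1 (78.0 against 81.8 CPM).

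COL1A1, LOXL2 and MMP14 were higher and CALD1 lower in replicate 1 as well (0.83, 0.58, 0.47 and -1.14), while MMP2, SPARC and TNC were not called there (0.15, 0.10 and 0.40). Leaving out pair 2, the blocked test called 3 of the 13. Leaving out pair 1 gave 6 calls and leaving out pair 3 also gave 6. Blocked DESeq2 called 5. MMP2 and COL1A1 were called with each pair left out. Of the fibroblast markers DCN had 0 reads in all libraries, LUM 1 read in TIM-1 replicate 3 and PDGFRA at most 2. The summed level of these and COL1A1, 7.30 to 13.2 CPM in TIM-1 libraries and 3.92 to 7.45 in controls, was thus nearly all COL1A1.

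Among 11 tested receptors and partners of fibronectin 2 rose with the block and 0 fell, beside 3.22% and 1.79% of all tested genes. Unpaired edgeR called 0, with 1 at an unadjusted p under 0.05. DESeq2 called 0 without the block and 1, higher, with it. TGM2, a transglutaminase gene, stood at 642, 627 and 632 CPM in TIM-1 libraries and 545, 508 and 542 in controls, without overlap (log2 fold change 0.25, blocked edgeR adjusted p = 0.00378). ITGB1, the shared beta chain of most fibronectin receptors, stood at 1821 ± 102 and 1580 ± 256 CPM (SD, n = 3 each; 0.22, blocked edgeR adjusted p = 0.0231). Leaving out pair 2 ended both calls (edgeR adjusted p = 0.237 and 0.324) at log2 fold changes of 0.23 and 0.20. Leaving out pair 3 ended that of ITGB1 (0.142) at 0.15. The groups overlapped for ITGB1, and it was higher in replicate 1 by a log2 difference of 0.25 (edgeR adjusted p = 0.00932). In that contrast 5 of the 11 were called higher and 0 lower, beside 11.6% and 12% of all tested genes. ITGA4 stood at 10.5 and 14.2 CPM (blocked edgeR adjusted p = 0.0707), and was called lower when pair 3 was left out (log2 fold change -0.59, edgeR adjusted p = 0.00866). Other transcription factors and regulators listed for the transition, ID1, ID2 and ID3 among the regulators, gave 0 of 9 calls by edgeR and DESeq2. At an unadjusted edgeR p under 0.05 there were 0 unpaired and 1 blocked, and PRRX1 and TWIST2 had 0 reads. ID3 stood at 390 and 397 CPM, TCF12 at 145 and 135, FOXC1 at 18.2 and 21.1, and ID2 at 124 and 111 CPM. ID2 was called higher without pair 1 (log2 fold change 0.40, blocked edgeR adjusted p = 0.00221), and in pair 1 TIM-1 was lower (177 against 184 CPM). ID2 was also higher in replicate 1, by a log2 difference of 1.08 (edgeR adjusted p = 2.51e-08). Of 12 corepressors that SNAI and ZEB proteins use, 0 passed (edgeR and DESeq2; 0 unadjusted unpaired, 1 blocked), and their median was -0.05. KDM1A, the histone demethylase bound by SNAI1, stood at 229 and 231 CPM, the Polycomb genes EZH2 at 191 and 206 and EED at 33.1 and 37.7, and SIRT1 at 69.7 and 76.6 CPM.

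**Figure D4:**
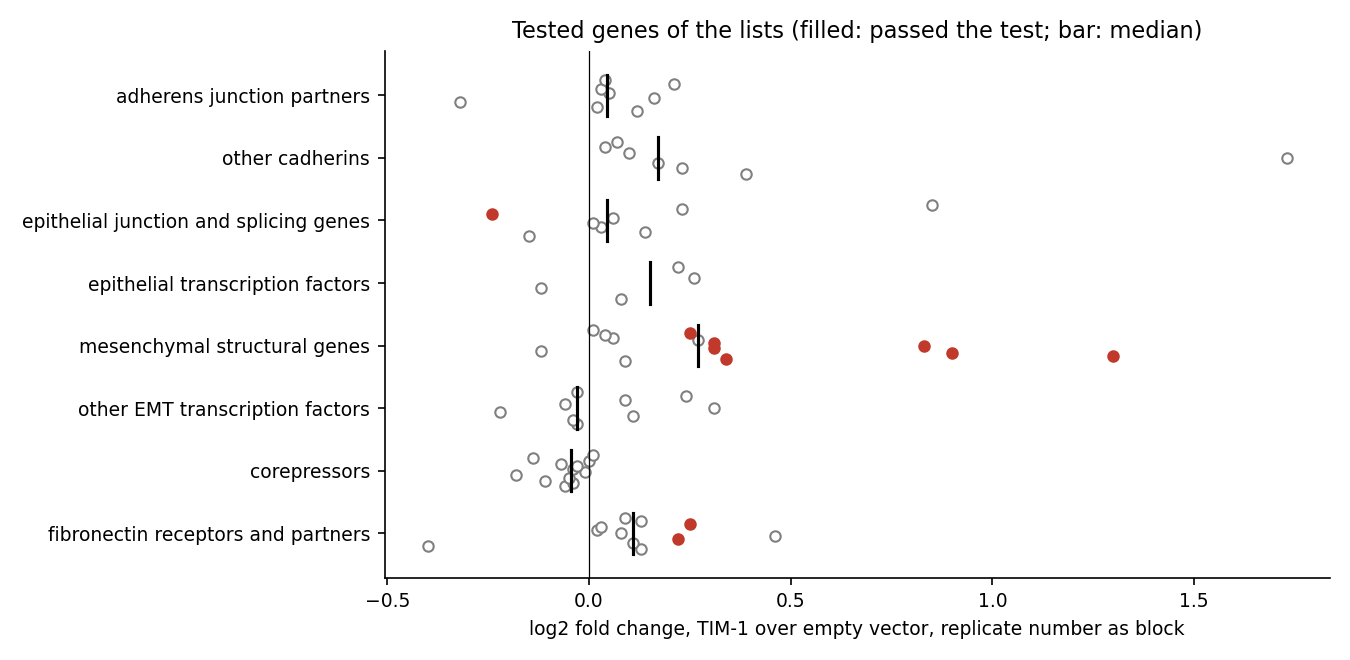
Log2 fold change of TIM-1 over empty vector in the blocked fit for each tested gene of the 8 lists (1 point per gene, filled where the test was passed, vertical bar at the list's median). Filled points lie at 7 of 13 mesenchymal structural genes and 2 of 11 fibronectin receptors and partners. The epithelial junction and splicing list has 1 of 8 filled, the keratin gene KRT18, which lies below 0.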

How the data were processed

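RNA from 6 UMUC3 libraries was measured, and groups follow the treatment in the labels. The authors deposited raw read counts per Ensembl gene, without normalization. HISAT2 2.0.5, featureCounts 1.5.0-p3, DESeq2 1.16.1 and hg38 are named in the submitters' processing notes. No source at hand states the annotation release, strand or multi-mapping settings. Symbols were found for 60463 rows, and positions and exon lengths come from GENCODE 29 (GRCh38).

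Counts were filtered with filterByExpr (minimum count 10) and compared by quasi-likelihood fits in edgeR 4.0.16 (glmQLFTest, TMM, robust) under R 4.3.3, adjusted over all 14479 genes. DESeq2 1.42.0 was an alternative. The unpaired and blocked edgeR fits were tested on simulated data. These had the same spread beyond counting error for every gene and no outlying replicate 1. They thus differ from the libraries here, and no conclusion is drawn from them. A count of 0 was taken to allow 3 counts, and intervals cover counting error only where so named.

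Same-numbered libraries deviated together from their group means over genes (correlations 0.53, 0.23 and 0.26 for replicates 1, 2 and 3, all above 0.1), so the numbers were treated as pairs in a second fit. The pairing comes from the data. Crossed numbers did about as well for the later replicates: TIM-1 replicate 3 correlated at 0.26 with control replicate 2. For TIM-1 replicate 2 and control replicate 3 the value was 0.19. Deviations within a group cancel out, so an outlying replicate 1 in both groups makes the remaining libraries correlate by itself. The check thus singles out replicate 1 and cannot decide how replicates 2 and 3 match. Blocked calls and statements by pair rest on the numbers as given.

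The 10 genes, the lists and the contrast of replicate 1 were chosen with earlier results of these data known. Named genes are the 10 members, per list the 3 smallest p of the blocked fit and the most abundant gene, and per varying member the 3 most alike genes.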

Additional observations from a re-analysis of the deposited data

How the results depend on the processing

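No member passed in any of the 127 member values with an adjusted p under the alternatives. Without pairing 2 genes were higher and 0 lower with TIM-1. With the replicate block it was 466 and 259, without the low-count filter 60 and 12, with DESeq2 24 and 1, with DESeq2 and the replicate block 131 and 78, and with both libraries numbered 1 left out, chosen after seeing the data, 175 and 82. Leaving out 1 library gave 1 to 8 higher and 0 to 1 lower, and leaving out pair 1, 2 or 3 from the blocked fit 440, 152 or 339 higher and 398, 57 or 134 lower. RLE and total-count scaling gave 2 and 0 and moved the median of all genes to -0.003 and 0.013. The contrast of replicate 1 called 1673 genes higher and 1740 lower, and 708 to 1963 and 670 to 2058 with a library left out. Beyond the calls named with their results, the block changed no call of a member. The cause of these moves was not tested.

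Signs changed 43 times, 0 of them past the threshold. With a library or pair left out the log2 fold change of ZEB2 ran from -0.12 to 0.06 (single libraries -0.09 to 0.06), SNAI1 -0.32 to 0.09, TWIST1 -0.13 to 0.21 (single libraries -0.12 to 0.13), CDH3 -0.12 to 0.82, CDH4 -0.04 to 0.40, CDH24 -0.02 to 0.17, MUC1 -0.06 to 0.47, KLF4 -0.48 to 0.17, AXL -0.06 to 0.16, ID2 -0.18 to 0.74, ID3 -0.10 to 0.04 and KDM1A -0.05 to 0.02. In the replicate 1 contrast FN1 ran from -0.11 to 0.08, ZEB1 -0.05 to 0.07 and TWIST1 -0.55 to 0.04. With both libraries numbered 1 left out ZEB2 was 0.02, TWIST1 -0.13 and ID3 0.01. With total counts only KDM1A was 0.003 and FN1 0.02 (replicate 1 contrast), and without the filter ZEB1 was -0.01 (replicate 1 contrast). Depth limits SNAI2, with 5 to 25 reads a library, and leaves CDH1 and CDH11 untested.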
